A study of Mus musculus with 18 samples.

Results

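Ccnd2 encodes cyclin D2. All probes that the array tables name as Ccnd2 were taken, which gave 3 cDNA clones, H3152D01, H3117B01 and H3026D04, of 15247 gene probes; Ccnd2 is 1 of 5892 different gene symbols on the array. The gene was chosen by its channel ratios and levels on these same arrays, so its values are a description and carry no test. The cells were i-Mixl1 mouse embryonic stem cells, named in the labels for the homeobox gene Mixl1, that differentiated as embryoid bodies with doxycycline (DOX) at 0.1 ug/ml from 1 day after plating or without it. RNA was collected on days 2, 3 and 4 from 3 biological replicates in each of the 6 groups. Each of the 9 arrays carried the DOX and the control sample of 1 day and replicate number, 1 in the red and 1 in the green scanner channel. The names of the day 4 arrays give no replicate number. It was taken there from the deposited value table, whose columns equal the scaled channels. All groups share the i-Mixl1 line. How DOX acts on that line and whether it is 1 clone are not given in the sources used here.

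Which channel held the DOX sample was not settled. The deposited value table puts DOX in the red channel, whereas the labels pair DOX with Cy3 and the control with Cy5, which puts DOX in the green. Ratios are therefore given as red over green, and a gene called higher or lower is so in red relative to green. A high ratio is a high level with DOX if the value table is right, and a high level without DOX if the labels' dyes are. No array had its dyes swapped, so dye and treatment cannot be told apart within a day, but a fixed dye bias of a probe cancels between days.

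Cyclin D2 is 1 of the D-type cyclins, which bind the kinases Cdk4 and Cdk6 in the G1 phase of the cell cycle. The active kinases phosphorylate the retinoblastoma protein and its relatives, which releases E2F factors and lets the cell enter S phase, and CDK inhibitors restrain this step. Mouse embryonic stem cells are known for low levels of D-type cyclins, whose levels increase as the cells differentiate.

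The Ccnd2 ratio was high at day 2, smaller at day 3 and below 0 at day 4. On the brightest clone, H3152D01, the background-subtracted red intensities at day 2 were 1249, 786 and 1804 on the 3 arrays, and the green intensities of the same spots were 171, 114 and 255. Red was thus far above green on each day 2 array, with a ratio of raw intensities of 7.09 ± 0.205 (SD, n = 3). At day 3 the red intensities were 509, 2115 and 985, and the green were 149, 509 and 327. The raw ratio was then 3.53 ± 0.580 (SD, n = 3), with red still above green on each array. At day 4 the order was turned: the red intensities were 583, 1109 and 1296 and the green 683, 1441 and 2579, a raw ratio of 0.709 ± 0.183 (SD, n = 3).

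Normalization kept this order. After normexp background correction and loess within each array, the log2 ratios of H3152D01 were 2.43, 1.95 and 2.48 at day 2. They were 1.48, 1.83 and 1.22 at day 3. At day 4 they were -0.46, -0.50 and -0.89. The 3 days did not overlap on this clone. The day means were 2.29 at day 2, 1.51 at day 3 and -0.61 at day 4, each with a standard error (SE) of 0.12 from limma and n = 3. Red was 4.88-fold green at day 2 and 2.85-fold at day 3, and green was 1.53-fold red at day 4. The clone ranked 4 from the highest ratio of 15246 probes at day 2 and 23 of 15247 at day 3, and 276 from the lowest of 15243 at day 4. Of all probes, 3.3% passed the test of the day 2 ratio, 20.1% that of day 3 and 17.4% that of day 4 (limma, Benjamini-Hochberg adjusted p of at most 0.05, either direction).

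The second clone had the same order of day means with smaller ratios. H3117B01 was dimmer: its red intensities were 330, 369 and 291 at day 2, 147, 692 and 211 at day 3, then 191, 209 and 351 at day 4. Its green intensities were 69, 90 and 78 at day 2, 109, 178 and 67 at day 3, then 204, 207 and 467 at day 4. The signal-to-noise ratio of the green spot was under the limit of 1.4 on the third array of day 2 (1.345) and of day 3 (1.188). The log2 ratios were 1.46, 1.22 and 1.17 at day 2, 0.48, 1.52 and 0.85 at day 3, then -0.22, -0.05 and -0.20 at day 4. The day 2 and day 3 ratios overlapped on this clone, through the second array of day 3, while those of day 4 lay below all the others. The means were 1.28, 0.95 and -0.16, each with an SE of 0.14 (limma, n = 3).

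The third clone measured nothing that could be read. H3026D04 carried the scanner flag -50 on all 9 arrays, its intensities ran from -10 to 30, and its signal-to-noise ratio from -0.234 to 0.411. Neither of its channels was well above background on any day, and no fold is given for it. All 3 clones are listed as a single PCR band in the array table.

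After normalization the 2 measured clones had the same sign on 9 of 9 arrays, though H3117B01 was near 0 at day 4. They correlated across the arrays with r = 0.939, which rests on the same 9 pairs of samples and on the differences between days. They differed in size. The ratio of H3152D01 exceeded that of H3117B01 by 1.00 ± 0.29 (SD, n = 3) on the log2 scale at day 2 and by 0.56 ± 0.38 at day 3. At day 4 it was the lower one, with a difference of -0.46 ± 0.22. The brighter clone thus lay further from 0 on each of the 9 arrays.

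The authors' deposited table gives ratios in the same order. For H3152D01 the authors' deposited table has a mean red over green ratio of 7.304 (SD 0.92) at day 2, 3.564 (SD 0.776) at day 3 and 0.63 (SD 0.0929) at day 4. For H3117B01 the authors' deposited table has 4.334 (SD 0.8121), 2.704 (SD 1.068) and 0.8119 (SD 0.1076). Its cells for H3026D04 are empty.

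**Figure D1:**
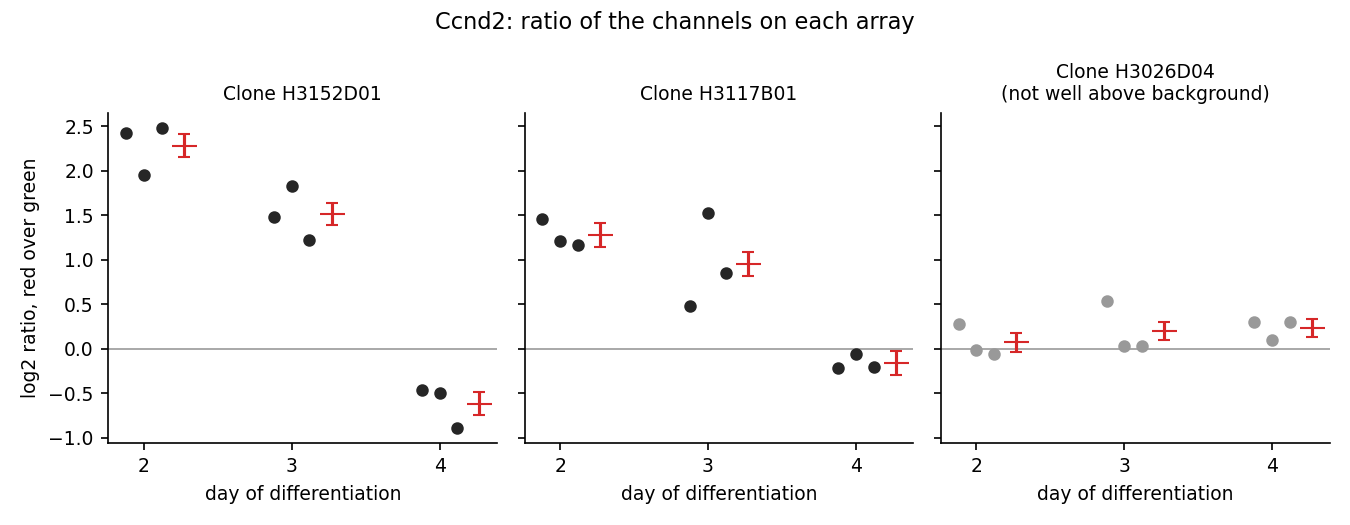
Log2 ratio of the red over the green channel (vertical axis) on each of the 3 arrays of a day (dots), for the 3 Ccnd2 clones, with the mean and its limma SE (red bars, n = 3). H3152D01 runs from a mean of 2.29 at day 2 to -0.61 at day 4 and H3117B01 from 1.28 to -0.16, whereas H3026D04 was not well above background.

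The change of the ratio between days lay mostly in the green channel. Single-channel levels, given as log2 intensities after loess within and Aquantile scaling between arrays, were computed for each sample of H3152D01. The green levels were 7.55, 7.75 and 8.50 at day 2, 8.19, 9.02 and 9.01 at day 3, then 9.96, 10.63 and 11.24 at day 4. The red levels were 9.97, 9.70 and 10.98 at day 2, 9.66, 10.86 and 10.23 at day 3, then 9.50, 10.13 and 10.35 at day 4. The green samples of day 4 lay above all green samples of days 2 and 3, and the red samples of the 3 days overlapped.

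Ordered by mean level, the 6 groups ran from green at day 2 (7.93 ± 0.50, SD, n = 3) and green at day 3 (8.74 ± 0.48) to red at day 4 (9.99 ± 0.44), red at day 2 (10.22 ± 0.68), red at day 3 (10.25 ± 0.60) and green at day 4 (10.61 ± 0.64). Neighbours in this order overlapped in their samples, with 1 exception. Between green at day 3 and red at day 4 the means were 1.25 apart and no samples overlapped. The 2 green groups of days 2 and 3 thus lay apart from the other 4 groups.

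From day 2 to day 4 the mean green level of H3152D01 differed by 2.68 on the log2 scale, a 6.39-fold higher level at day 4, and the mean red level by -0.22. Of the green difference, 0.81 lay between days 2 and 3 (1.75-fold) and 1.87 between days 3 and 4 (3.65-fold). In the red channel the same steps were 0.03 and -0.26, both within the SD of a group. The ratio itself differed by -2.90 (SE 0.18, limma) between day 4 and day 2, which ranked 4 from the lowest of 15242 probes. Across all probes, 6.56% passed the test of that difference, beside 3.21% for day 3 against day 2 and 6.58% for day 4 against day 3.

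H3117B01 had the same order at its lower end. Its green level was 7.33 ± 0.32 (SD, n = 3) at day 2 and 7.71 ± 0.20 at day 3, and no sample of either group reached the lowest sample of the other 4 groups. Those 4 groups, red on each day and green at day 4, had means between 8.46 and 8.66 and overlapped throughout. The green level was 2.44-fold higher at day 4 than at day 2 on this clone, the red level differed by -0.15, and the ratio by -1.44 (SE 0.19), rank 20 from the lowest. The offset of 50 added in the background step draws the ratios of dim spots such as these towards 0 by construction.

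Samples hybridised to 1 array tended to be high or low together. The third array of day 2 held the highest red (10.98) and the highest green level (8.50) of H3152D01 for that day, and the third array of day 4 likewise (10.35 and 11.24). On H3152D01 the levels varied more among the arrays of a day than the ratios did. This did not hold throughout on H3117B01, where at day 3 the ratio had an SD of 0.53 and the green level 0.20. A difference in level between days rests on separate arrays, whereas a ratio rests on 1. The RNA came from whole embryoid bodies, in which fewer cells expressing Ccnd2 and less Ccnd2 RNA per cell cannot be told apart.

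**Figure D2:**
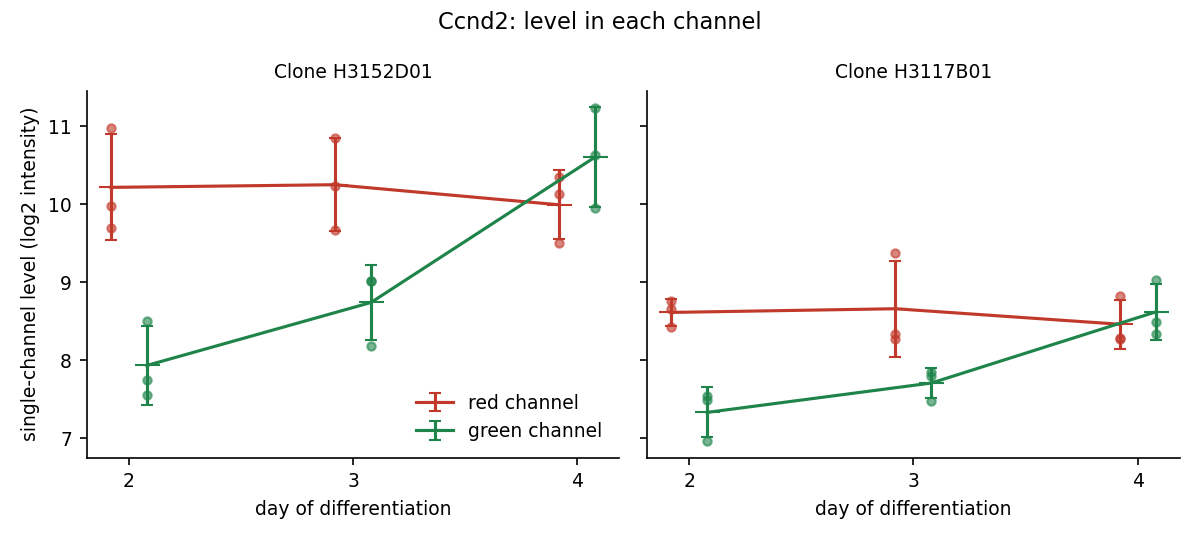
Single-channel log2 level (vertical axis) of the 2 measured Ccnd2 clones by day, in the red and the green channel, with 1 dot per sample and bars for the mean ± SD (n = 3). Green goes from 7.93 to 10.61 on H3152D01 between days 2 and 4, and red stays between 9.99 and 10.25.

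The position given in the array table for clone H3117B01 is chromosome 6, 128022199 to 128047570, where the table places the Ccnd2 gene; the genome build is not given in the sources used here. Of the 20 genes that the RefSeq gene table of GRCm38.p6 lists as the 10 on each side of Ccnd2, 3 had a probe. D6Wsu163e was higher at day 4 (0.40, SE 0.08, adjusted p = 0.00209, above 0 on 3 of 3 arrays), with values of -0.15 and -0.0044 at days 2 and 3 that did not pass. Tigar, a regulator of glycolysis, had log2 ratios of 0.14, 0.23 and -0.04 on the 3 days, and Foxm1, a transcription factor of the G2 and M phases, had 0.16, 0.04 and -0.15, none past the test (limma, adjusted p at least 0.0618). No neighbour measured had a ratio near that of Ccnd2 at day 2.

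Of 88 genes listed for the cyclin D pathway beside Ccnd2, 55 had a probe, and the brightest probe stood for a gene. At day 2, 2 of the 55 were higher and 2 lower (7.27% called, against 3.3% of all probes, 1.38% higher and 1.92% lower). At day 3, 4 were higher and 8 lower (21.8%, against 20.1%, of which 9.15% higher and 11% lower). At day 4, 3 were higher and 7 lower (18.2%, against 17.4%, of which 7.97% higher and 9.45% lower). These shares were near those of all probes at days 3 and 4. The median log2 ratio of the 55 was -0.02, -0.0021 and -0.07 on the 3 days, beside -0.0019, 0.0040 and 0.0039 for all probes. With plain background subtraction the share of higher genes among those called was 55.6% rather than 33.3% at day 3 and 42.9% rather than 30% at day 4. Without replicate 3 the direction at day 4 was turned, with 75% of the 4 genes then called higher. The pathway calls were not rerun with each day fitted on its own or among the brighter probes only. Under the other alternatives that kept the pairing by array and gave a value, 1 of 4 calls was kept at day 2. At day 3, 4 of 12 were kept, and at day 4, 2 of 10. None of the 55 passed on any day without the pairing by array (limma on single channels, with 3, 4 and 1 genes at an unadjusted p of 0.05 or less).

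Among the D-type cyclins and their kinases, no measured gene had a ratio of the size seen for Ccnd2. Ccnd1, cyclin D1, had log2 ratios of 0.07, -0.18 and 0.05 at day 2, 0.22, 0.35 and 0.28 at day 3, then -0.18, 0.30 and 0.07 at day 4. It was higher at day 3 (0.28, SE 0.09, adjusted p = 0.041), a call that was lost without any 1 of the 3 arrays (adjusted p 0.0858 to 0.181). Its means at days 2 and 4 were -0.02 and 0.06, neither past the test, and both changed sign without replicate 2 (to 0.06 and -0.05). The means of its single-channel levels in the 6 groups lay between 11.09 and 11.46, with SDs of 0.10 to 0.51 (n = 3).

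Ccnd3, cyclin D3, had log2 ratios of 0.31, -0.10 and 0.12 at day 2, 0.28, 0.14 and -0.03 at day 3, then 0.24, 0.66 and 0.35 at day 4. It was higher at day 4 (0.42, SE 0.10, adjusted p = 0.00891), where Ccnd2 was below 0. Its second probe was also higher at day 4 (0.28, adjusted p = 0.0166), and without replicate 2 the call of the first was lost (adjusted p = 0.111). Cdk4, the kinase partner, had means of 0.06, 0.22 and 0.09 on its brightest probe, none past the test, and the day 4 mean was -0.07 without replicate 2. A dimmer Cdk4 probe was lower on each day (-0.40, -0.40 and -0.32, adjusted p = 0.0274, 0.00753 and 0.0296), so the 2 Cdk4 probes disagreed. Cdk6 had no probe.

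Among the CDK inhibitors, Cdkn1c, which encodes p57, was higher on all 3 days. Its log2 ratios were 0.68, 0.58 and 0.50 at day 2, 0.88, 1.06 and 0.75 at day 3, then 0.45, 0.74 and 0.60 at day 4, above 0 on 9 of 9 arrays. The means were 0.59, 0.90 and 0.60 (SE 0.09, adjusted p = 5.64e-04, 2.44e-06 and 1.47e-04), and the calls were kept without each replicate in turn. Cdkn1c and Ccnd2 were thus both above 0 at days 2 and 3 and apart in sign at day 4. The ratio of Cdkn1c itself did not differ between days past the test (limma, adjusted p at least 0.193). Neither channel of Cdkn1b, which encodes p27, was well above background on any day, and Cdkn2c passed the test on no day. Cdkn1a had no probe.

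Of the pocket proteins and E2F factors, 1 of 9 measured genes passed on any day by its brightest probe, at day 3 (11.1%, against 20.1% of all probes). This was Rbl2, a relative of the retinoblastoma protein, lower at day 3 (-0.37, SE 0.08, adjusted p = 0.00681), a call lost without replicate 1 or 2 (adjusted p up to 0.0683). At day 2 and day 4 none of the 9 passed (limma, 2 and 1 at an unadjusted p of 0.05 or less), beside 3.3% and 17.4% of all probes. Dimmer probes of E2f6 and E2f1 were called higher at day 4 (adjusted p = 4.57e-05 and 0.0139), with neither channel well above background. Among the cyclins E, A and B and their kinases, 1 of 7 passed on each day (14.3%, against 3.3%, 20.1% and 17.4% of all probes). Ccne1, cyclin E1, which acts after the D-type cyclins at the start of S phase, was lower on each day, on 9 of 9 arrays (-0.31, -0.36 and -0.38, SE 0.08, adjusted p = 0.0437, 0.00516 and 0.00314). Its day 2 call was lost without any 1 array (adjusted p 0.121 to 0.318) and its day 4 call without replicate 3 (0.0683), and the day 3 call was kept. The sign of Ccne1 was thus opposite to that of Ccnd2 at days 2 and 3 and the same at day 4. The ratio of Ccne1 itself did not differ between days past the test (limma, adjusted p at least 0.759).

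Of 13 measured replication genes that E2F factors regulate, none passed at day 2 (limma, 1 at an unadjusted p of 0.05 or less), beside 3.3% of all probes. At day 3, 1 was lower and at day 4, 3 were lower, beside 11% and 9.45% of all probes. Mcm6, a subunit of the replicative helicase, was at -0.22 at day 3 (adjusted p = 0.0432, lost without any 1 array, up to 0.157). At day 4, Orc1 of the origin recognition complex was at -0.37 (adjusted p = 0.00425), the helicase subunit Mcm2 at -0.34 (0.0185) and Rrm2, a subunit of ribonucleotide reductase, at -0.31 (0.0222). Each of these calls was lost without at least 1 array: Orc1 without replicate 3 (0.0797), Mcm2 without replicate 1 or 3 (up to 0.166) and Rrm2 without replicate 2 or 3 (up to 0.182). The 2 other Rrm2 probes differed, 1 lower at day 4 (-0.48) and 1 higher at day 3 (0.31).

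Among 6 measured regulators of the G1 to S step, 1, 3 and 2 were lower on the 3 days, beside 1.92%, 11% and 9.45% of all probes, and none was higher. Fbxw7, the F-box protein that marks cyclin E for degradation, was not well above background in red at days 2 and 3, and green was at least 1.64-fold and at least 1.79-fold higher there (adjusted p = 0.0152 and 3.33e-04). The day 2 call was lost without replicate 1 or 3 (up to 0.176), and at day 4 neither channel was well above background. The kinase Wee1 was at -0.30 at day 3 and at day 4 (adjusted p = 0.0175 and 0.0186), and Cks2, a CDK-binding subunit, at -0.34 at day 3 (0.0264). The Wee1 calls were lost without replicate 1 or 2 at day 3 and without 2 or 3 at day 4 (up to 0.104 and 0.201), and that of Cks2 without replicate 1 or 2 (up to 0.228). Of 6 other cyclins, 1 was called at day 3 (16.7%, against 20.1% of all probes) and none at days 2 and 4 (3.3% and 17.4% of all probes). The 1 called was Ccni (limma, adjusted p = 0.0168), with neither channel well above background. Its call was lost without replicate 1 or 2 (up to 0.173).

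Of 8 measured genes listed as regulators of Ccnd2 or of the cyclin D proteins, 1 was higher at day 2, 2 were higher and 1 lower at day 3, and 1 was higher and 1 lower at day 4. Of all probes, 1.38%, 9.15% and 7.97% were higher on the 3 days and 1.92%, 11% and 9.45% lower. Myc, a transcription factor known to activate Ccnd2, was higher at day 3, with log2 ratios of 0.76, 0.75 and 0.32 (mean 0.61, SE 0.09, adjusted p = 3.01e-04). Its second probe was higher too (0.40, adjusted p = 0.011), and the call of the first was kept without each replicate. At days 2 and 4 Myc had means of 0.14 and 0.25 that did not pass, and its difference between days 3 and 2 did not pass either (0.47, SE 0.13, adjusted p = 0.0691). Mxd4, which opposes Myc on shared partners, was higher at day 2 (0.31, adjusted p = 0.0446, lost without any 1 array, up to 0.277) and at day 3 (0.35, adjusted p = 0.00632, lost without replicate 2, 0.0797).

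Tcf7l2, a transcription factor of the Wnt pathway, was lower at days 3 and 4 (-0.38 and -0.40, adjusted p = 0.017 and 0.0135). Both calls were lost without replicate 2 or 3 (up to 0.11 and 0.161). Akt1, a kinase that stabilises D-type cyclins through Gsk3, was higher at day 4 (0.33, adjusted p = 0.0109), a call lost without replicate 2 (0.0803).

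**Figure D3:**
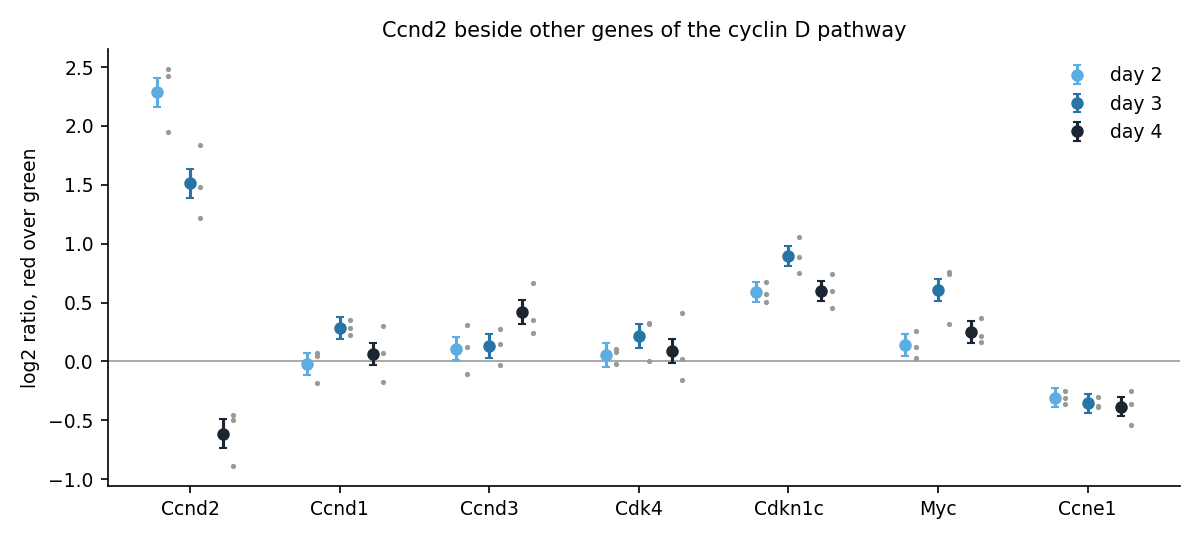
Log2 ratio of red over green by day for Ccnd2 (clone H3152D01) and 6 other genes of the cyclin D pathway, as the mean with its limma SE (n = 3) and the 3 arrays as small grey dots. Ccnd2 spans 2.29 to -0.61, while the means of the other 6 lie between -0.38 and 0.90.

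Genes with ratios most like those of Ccnd2 across the 9 arrays were sought among 109 probes whose spread was at least 0.5 of that of H3152D01 (SD 1.32). Of these, probes without a gene name, with a RIKEN, EST or similar provisional name, or of Ccnd2 itself were left out. A probe so left out may be closer to Ccnd2 than the genes given. By Pearson's r over the 9 log2 ratios, the most like of the named genes were Dbt (0.974), Podxl (0.970), Upp1 (0.970), Pou5f1 (0.964) and Eomes (0.958). Each r rests on 3 days of 3 arrays and is a description. These genes fell into different patterns of sign. Podxl, a sialomucin of the cell surface, had mean log2 ratios of 3.07, 2.14 and -0.31, and its 2 other probes followed (r = 0.954 and 0.963). Upp1, uridine phosphorylase, had 1.85, 1.60 and -1.54, on a clone listed with no PCR product. Eomes, a T-box factor of the primitive streak, had 0.97, 0.88 and -1.29.

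Dbt, an enzyme of branched-chain amino acid breakdown, had -0.02, -0.37 and -2.08, and Pou5f1, the pluripotency factor Oct4, had -0.21, -0.76 and -1.90. These last 2 were never above 0 in their day means, so they share with Ccnd2 the order of the days and not the sign at days 2 and 3. The 2 dimmer probes of Dbt did not follow (r = -0.488 and -0.034).

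The channels moved differently among these genes. Between day 2 and day 4 the green level of Podxl differed by 3.40 on the log2 scale and its red level by 0.02, the same pattern as Ccnd2, whose green differed by 2.68 and red by -0.22. Upp1 had 2.88 in green and -0.51 in red. Eomes was higher at day 4 in both channels, by 3.49 in green and 1.23 in red. Pou5f1 was lower in both, by -2.33 in red and -0.64 in green, and Dbt had 0.68 in green and -1.39 in red. These are differences of a probe between days and not levels set against another probe.

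**Figure D4:**
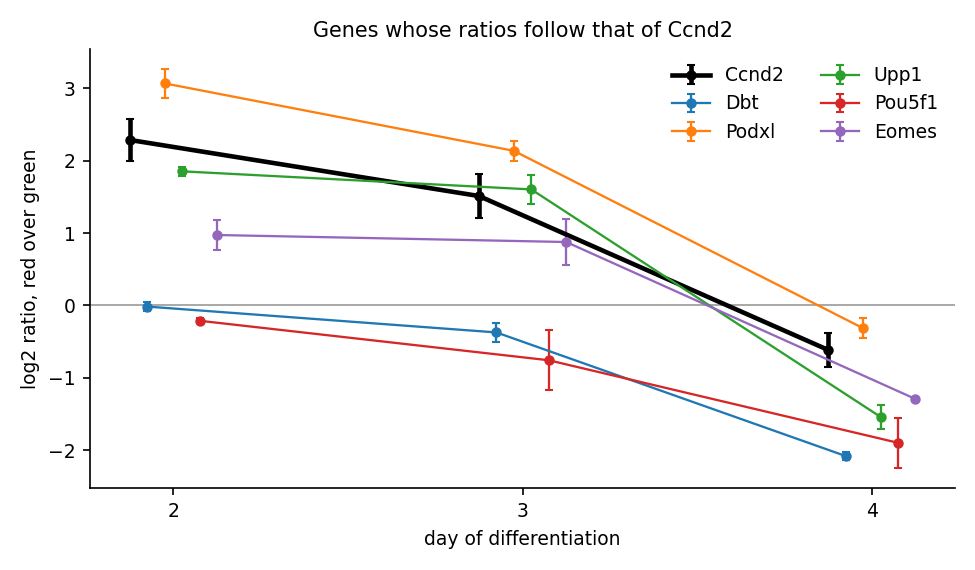
Mean log2 ratio of red over green by day, with the SD of 3 arrays, for Ccnd2 (clone H3152D01, black) and 5 other genes. These 5 were the most correlated with Ccnd2 over the 9 arrays among named genes past the spread limit. The ratio is lowest at day 4 for all 6; Podxl, Upp1 and Eomes start above 0 at day 2 like Ccnd2, and Dbt and Pou5f1 do not.

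The labelled cells were checked against their markers. Of the pluripotency markers, 4 of 7 had a probe, and their summed single-channel level ran from 23730 to 25245 in red and 24453 to 25046 in green at day 2, and from 2884 to 5070 and 5329 to 7382 at day 4. The members went opposite ways. None of the 4 passed at day 2 (limma, 0 at an unadjusted p of 0.05 or less), beside 3.3% of all probes. At day 3, 3 were higher and 1 lower, beside 9.15% higher and 11% lower of all probes. At day 4, 2 were higher and 1 lower, beside 7.97% and 9.45%. Pou5f1 was the lower one on both days (-0.76 and -1.90), and Dppa5a was higher (0.35 and 0.74). Of the primitive streak markers Eomes was measured, T stayed near background on all days in both channels, and Mixl1 had no probe.

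Markers of other cell types were counted beside the shares of all probes. Of all probes, 3.3% passed at day 2 in either direction, and 9.15% were higher at day 3 and 7.97% at day 4. None of the 3 blood, 2 trophoblast and 2 visceral endoderm markers measured passed at day 2 (limma, 0 at an unadjusted p of 0.05 or less), when the Ccnd2 ratio was highest, and neither channel was well above background for the blood and trophoblast markers. At day 3, when the Ccnd2 ratio was 1.51, 1 blood marker (Gata1, adjusted p = 0.00426) and 1 trophoblast marker (Hand1, adjusted p = 2.77e-05) were higher, both with green not well above background. At day 4, when it was below 0, all 3 blood markers were higher (summed level 737 to 1266 in red and 352 to 416 in green), as were both trophoblast markers (2671 to 4499 and 1390 to 3102) and 1 of 2 of the visceral endoderm, Ttr (602 to 938 and 296 to 349).

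Of 3 measured fibroblast markers, 1 was higher at day 2 and 1 lower at each of days 3 and 4. Of all probes, 1.38% were higher and 1.92% lower at day 2, and 11% and 9.45% were lower at days 3 and 4. The median log2 ratio of the 3 markers was -0.02 at day 2, -0.16 at day 3 and -0.15 at day 4. The 1 higher at day 2 was Col1a2 (0.63, adjusted p = 0.00291), and those lower, Lum at day 3 and Dcn at day 4, were not well above background in red. Neither of 2 measured neural markers passed at day 2 (limma, 2 at an unadjusted p of 0.05 or less), both were lower at day 3 (summed level 2857 to 3476 in red and 3777 to 5908 in green) and 1 at day 4 (1227 to 1478 and 1639 to 1837). The part of any of these cells in the Ccnd2 values was not tested.

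Across the 18 samples the median intensity ran from 209 to 491, and 54.3 to 70.1% of gene probes reached the signal-to-noise limit. Across probes, which are not independent, the log2 ratios of same-day arrays correlated with r of 0.515 to 0.727 and day 2 with day 4 arrays with r of 0.114 to 0.315. Precision is limited by the 3 arrays per day.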

How the data were processed

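Spotted cDNA arrays of 17327 spots were hybridised with 18 samples on 9 arrays. Per the file headers, the deposited intensity values are median foreground minus background per channel, with no normalization, and the deposited score per spot is a signal-to-noise ratio. The deposited ratio, or fold, is per the file headers the mean over a day's arrays of the scaled red over the scaled green value. The deposited value table was compared with the day tables' channels at 9650 to 10485 spots per column, those with a value and an intensity not near or below 0. It equalled the channels times 1 constant per column for 100% of these spots, within 0.001. Its DOX columns matched the red channel and its control columns the green, with column medians of 724 to 1257. Its scale and centring are thus known and its direction is not.

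The tools were limma 3.58.1 and R 4.3.3. After removal of spots flagged -75 or lower, normexp (offset 50) corrected the background and a loess within each array, with control spots at no weight, normalized the ratios. One linear model of 9 log2 ratios with a term per day (6 residual degrees of freedom) gave means, SE and moderated two-sided tests, adjusted by Benjamini-Hochberg over all gene probes at 0.05. The samples of an array form a pair: their deviations from the group means correlated with r of 0.798 to 0.906 on the 9 arrays. "Not well above background" means a signal-to-noise ratio that stayed under 1.4 on each of a day's 3 arrays. A bound ("at least") sets the mean of the bright channel against, per array, the higher of the dim probe's own signal and the lowest signal past that limit, and is open to dye bias.

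Named were all Ccnd2 probes, the D-type cyclins, Cdk4, Cdkn1b, Cdkn1c and Ccne1, up to 4 members per list and day past the test with the largest ratio, neighbours with a probe and the 5 most like genes. Ccnd2, the lists and the rules were chosen with earlier results of these data known. Symbols were updated through the RefSeq gene table of GRCm38.p6: 9203 probes carried one, of which 4088 were current, 3861 updated and 1254 kept. On simulated data for day 2 (15247 probes), 57 of 67 probes changed 1.5-fold, 65 of 67 changed 2-fold and 66 of 66 changed 4-fold were recovered. Of 198 calls there, 10 were false. The simulated noise was independent between probes and arrays, with no dye bias of single probes and no flagged spots, so recovery in the real data may be lower. Alternatives were plain background subtraction, median centring, the value table, a filter on dim probes, separate fits per day, no pairing by array, and each replicate left out. Calls of pathway genes and neighbours were not rerun with that filter or with the separate fits.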

Additional observations from a re-analysis of the deposited data

Results flagged for a closer look

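The normalized Ccnd2 ratio was above 0 on every day 2 array and below 0 on every day 4 array, on both measured clones: 2.29 and -0.61 for H3152D01, and 1.28 and -0.16 for H3117B01 (mean log2, n = 3). This difference between days was not tested, since the gene was chosen for it. The day 4 mean of H3117B01 lay near 0, with an SE of 0.14. On its second day 4 array the intensities before normalization were 209 in red and 207 in green. Other ways of processing were not run on H3117B01.

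Among the named genes of the pathway lists and the 3 neighbours measured, the ratio differed between days by the test of the difference itself (limma, adjusted over all probes, of which 6.58% passed between days 4 and 3 and 6.56% between days 4 and 2) for 3 genes. Mxd4 differed by -0.43 between day 4 and day 3 (adjusted p = 0.0307). Akt1 differed by 0.47 between day 4 and day 2 (adjusted p = 0.0222). D6Wsu163e, a neighbour of Ccnd2 in the genome, differed by 0.40 between day 4 and day 3 (adjusted p = 0.0376) and by 0.55 between day 4 and day 2 (adjusted p = 0.00548). The ratio of D6Wsu163e thus changed in the direction opposite to that of Ccnd2. The genes most like Ccnd2 were chosen by their correlation with it over the same arrays, so their differences between days were not tested.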

How the results depend on the processing

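The Ccnd2 ratio of H3152D01 kept its sign under every alternative run on that clone. At day 2 it was 2.84 with plain background subtraction and 2.86 from the value table, and 2.19 to 2.45 with 1 replicate left out. At day 3 it was 1.85 with plain subtraction and 1.35 to 1.66 with 1 replicate left out, and at day 4 -0.69 to -0.48. On H3117B01 it was 1.28, 0.95 and -0.16, and on H3026D04, which measured only background, 0.074, 0.20 and 0.24. From day 2 to day 4 the green level differed by 2.57 to 2.81 and the red by -0.55 to -0.02 with 1 replicate left out.

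Counts of probes past the test moved more. At day 2 (503, 41.9% of them higher) there were 122 with plain subtraction (68.9% higher), 126 from the value table (74.6%), 245 among the brighter probes, 294 with the day fitted on its own and 204 to 352 without 1 replicate. At day 3 (3072) there were 1921 with the day on its own and 1596 to 2798 without 1 replicate, and at day 4 (2656) 1145 to 2136. Without the pairing by array (no replicate block) the counts were 81, 150 and 162, and 0 pathway genes passed on any day. Pathway genes past the test numbered 4, 12 and 10: at day 2, 1 with plain subtraction, 2 with median centring, 1 from the value table and 1 to 2 without 1 replicate; at days 3 and 4, 4 to 11 and 4 to 9 without 1 replicate. The cause of these moves was not tested, other than that fewer arrays enter where 1 is left out.

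Of 249 alternative values of named genes, 161 kept sign and call, 82 lost the call and 6 changed sign, none of these past the test. Cdkn1b did so with median centring at day 3 (0.0044) and day 4 (0.034). With 1 replicate left out, Ccnd1 ran from -0.066 to 0.060 at day 2 and from -0.053 to 0.19 at day 4, Cdk4 from -0.067 to 0.22 at day 4 and Cdkn1b from -0.064 to 0.026 at day 4. Signal near background limits the green values of H3117B01 at days 2 and 3.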
